A study of Mus musculus with 24 samples.

Results

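The hearts of 5 transgenic mice of the MHC-CELFΔ mild line were compared with the hearts of 4 wild type mice at 24 weeks of age, which took 9 of the 24 arrays of the series. The arrays were chosen by their labels for age, genotype and line. All 9 mice were FVB/N females, and RNA was taken from the whole heart, so that atria, ventricles, valves and vessels were read together. The mild line, MHC-CELFΔ-574, is hemizygous for a transgene in which the α-MHC promoter, active in heart muscle cells, drives a dominant negative CELF protein. It is 1 transgenic line, so what the protein does and what the place of the transgene does cannot be told apart within it. The 4 wild type mice carried no transgene and were taken as 1 group: 2 were littermates of the mild line, and 2 were littermates of a severe line made with the same transgene, MHC-CELFΔ-10. The series also holds 5 severe line hearts at 24 weeks, and at 3 weeks it holds hearts of both lines and of wild type mice. The study asked which transcripts of the mild line differ from wild type at this older age, and how they compare with those at 3 weeks and in the severe line.

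CELF proteins bind RNA and set the splicing of many transcripts of the heart muscle cell, and the dominant negative protein competes with them in the nucleus. Serum response factor (SRF) is the transcription factor that drives contractile and immediate early genes in muscle, and the small proteins HOPX and FHL2 hold its activity back. A heart muscle cell under load commonly turns on genes of the fetal heart, among them the slow myosin Myh7, the skeletal actin Acta1 and the natriuretic peptide Nppb. Atrial and ventricular muscle differ in their light chains, calcium pump regulators and secreted peptides, so genes of both chambers can be followed in RNA of the whole heart.

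Each value below is a log2 signal of 1 array after the authors' quantile normalisation, for the brightest probe of a gene. Mild line values are listed from replicate 1 to 5, and wild type values as the 2 mild line littermates and then the 2 severe line littermates. Probes detected above an array's negative controls on 3 or more of the 24 arrays were kept, and 12011 genes were tested. Between 31.99% and 40.3% of probes were detected on the mild line arrays, and between 36.03% and 43.36% on the wild type arrays. The tissue label was checked on 11 genes of cardiac muscle cells, whose mean signal was 12.91 to 13.12 on mild line arrays and 12.92 to 13.22 on wild type arrays. Replicate 4 of the mild line stood apart in lung genes: Scgb1a1, a secreted protein of the airway, read 13.32 there and 6.54 to 6.98 on the other mild line arrays, against 6.52 to 6.69 on wild type arrays. In RNA of a whole organ, fewer cells of a type and less RNA per cell cannot be told apart.

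A gene was called affected where the groups differed by at least 2-fold and limma gave a raw p under 0.001 or a Benjamini-Hochberg adjusted p under 0.05, the thresholds the study used. This rule called 25 genes, 0.208% of those tested, of which 11 were higher and 14 lower in mild line hearts than in wild type hearts. All 25 also passed the adjusted p. Without the fold threshold, 0.966% of genes passed the adjusted p, 51 of them higher (0.425%) and 65 lower (0.541%) in the mild line. Apart from the affected genes, 91 of these differed by less than 2-fold. In all but 5 of the genes that passed, the mild line arrays did not overlap the wild type arrays, a property that 3.8% of all genes tested showed. The median difference over all genes was 0.01 on the log2 scale.

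**Figure D1:**
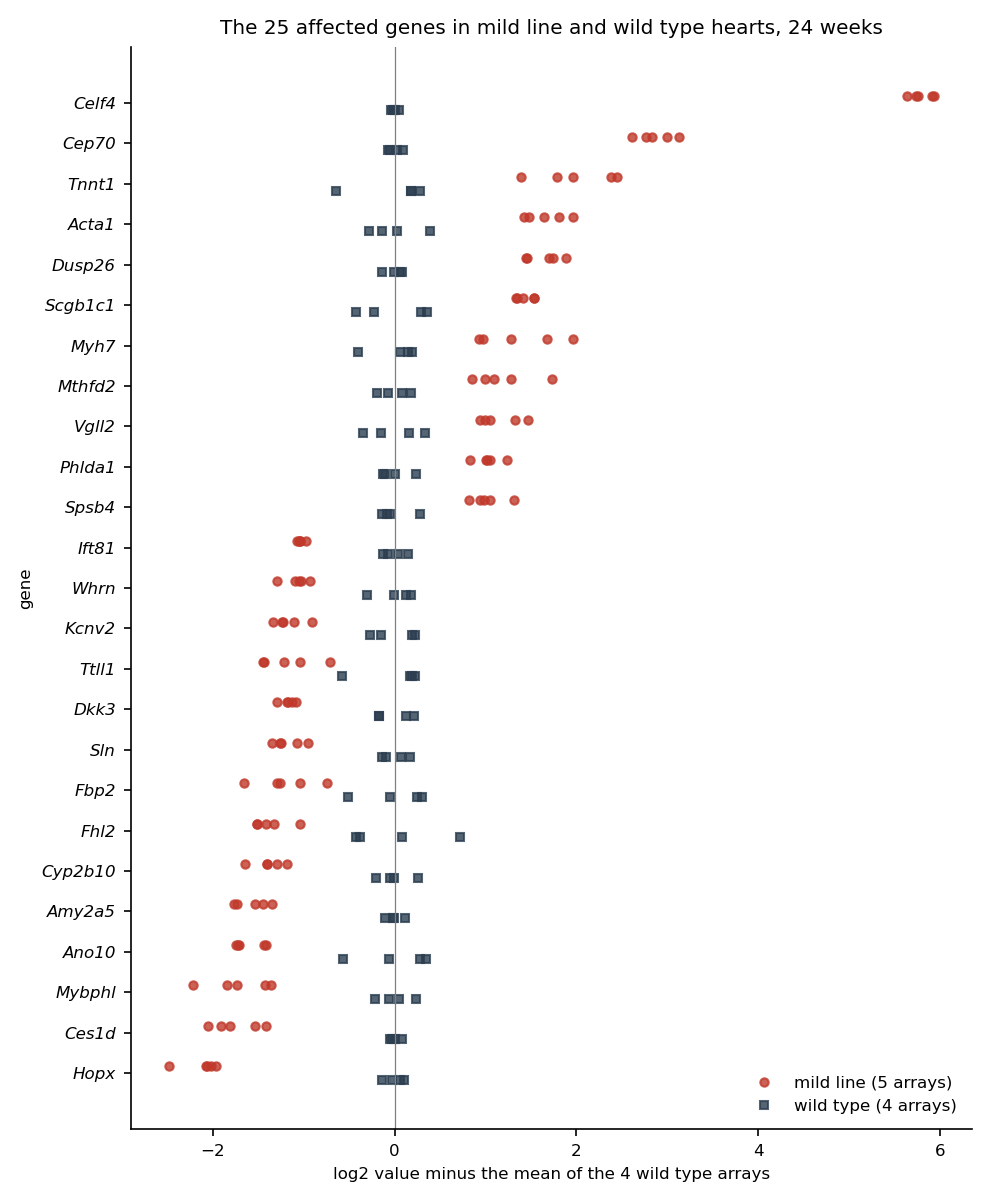
Log2 value of each array minus the mean of the 4 wild type arrays (x axis) for the 25 affected genes (y axis), at 24 weeks. Red circles are the 5 mild line arrays and dark squares the 4 wild type arrays, and in none of the 25 genes do circles and squares overlap.

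The largest difference was in Celf4, a member of the CELF family itself. Its brightest probe read 12.03, 12.15, 12.13, 12.3 and 12.32 on the 5 mild line arrays, against 6.37, 6.35, 6.4 and 6.44 on the wild type arrays. It was detected on every mild line array and on no wild type array, so that only a bound can be given: its signal was higher by at least 45.2-fold in mild line hearts (adjusted p = 3.48e-16, limma). The other 5 Celf4 probes on the array did not separate the groups, with differences of -0.04 to 0.13 on the log2 scale, and a single probe therefore carries the difference. The transgene itself encodes a CELF protein, and whether this probe reads the transgene or the mouse's own Celf4 was not tested. Celf1 and Celf2, the other CELF genes tested, differed by -0.17 and 0.14 and did not pass (adjusted p = 0.833 and 0.879).

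Cep70, which encodes a protein of the centrosome that binds tubulin, came next. It read 9.25, 9.42, 9.03, 9.19 and 9.55 in mild line hearts and 6.51, 6.35, 6.37 and 6.45 in wild type hearts, where no array detected it. Mild line hearts were higher by at least 6.06-fold (adjusted p = 3.48e-16). In severe line hearts its mean was 6.49, the level of wild type.

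The genes that RefSeq places beside Cep70 on its chromosome were read as well, and were chosen after their values were seen. Esyt3, which encodes a protein tethering the endoplasmic reticulum to the cell membrane, read 7.66, 7.65, 7.32, 7.65 and 7.28 in mild line hearts and 6.78, 6.63, 7.06 and 6.9 in wild type hearts. Its arrays did not overlap, and the difference of 0.67 ± 0.1 (SE) passed (adjusted p = 0.000575). The other 6 neighbours tested, Foxl2, Faim, Pik3cb, Mras, Armc8 and Dbr1, lay between -0.04 and 0.14, and none passed. At 3 weeks, on other arrays, Cep70 differed by 3.03 and Esyt3 by 0.55, again with both passing. In the severe line at 24 weeks Esyt3 differed from wild type by -0.07 (adjusted p = 0.749), and the difference between the lines was 0.74 (adjusted p = 2.37e-05).

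**Figure D2:**
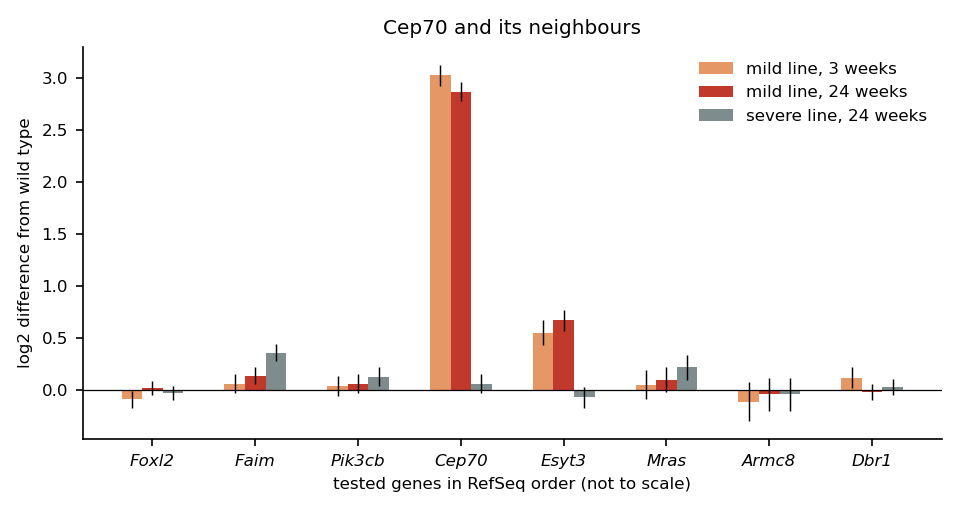
Log2 difference from wild type (y axis) for Cep70 and the tested genes on either side of it, in the order of the RefSeq annotation (x axis, not to scale). Bars show the mild line at 3 and at 24 weeks and the severe line at 24 weeks with standard errors; only Cep70 and Esyt3 stand above 0.5, and only in the mild line.

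Some genes of the fetal and stressed heart rose in the mild line. Of 18 such genes tested, Tnnt1, Acta1, Myh7 and Nppb passed, all higher, with a list median of 0.42 against 0.01 for all genes. Tnnt1, the slow skeletal form of troponin T, read 11.17, 12.22, 12.16, 11.74 and 11.56 in mild line hearts and 9.96, 9.13, 9.96 and 10.06 in wild type hearts. It was 3.98-fold higher in the mild line (log2 difference 1.99 ± 0.23, adjusted p = 9.5e-06), and the groups were more than 1 log2 unit apart at their nearest arrays. Acta1, the actin of skeletal muscle and of the fetal heart, read 14.01, 14.34, 13.96, 14.18 and 14.49 in mild line hearts and 12.4, 12.92, 12.25 and 12.56 in wild type hearts. It was 3.16-fold higher (adjusted p = 6.52e-07). Myl1, a fast skeletal myosin light chain, rose by 0.77 ± 0.13 with arrays at 13.51 to 13.92 in mild line hearts and 12.82 to 13.25 in wild type (adjusted p = 0.00154). The other 9 skeletal muscle genes tested, among them Mylpf, Atp2a1 and Ckm at 0.07, -0.05 and -0.03, did not pass.

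Myh7, the slow myosin heavy chain that gives way to Myh6 after birth in the mouse ventricle, read 10.24, 10.52, 9.84, 9.53 and 9.49 in mild line hearts and 8.71, 8.76, 8.62 and 8.16 in wild type hearts. All 5 mild line arrays lay above all 4 wild type arrays, and the gene was 2.57-fold higher (log2 difference 1.36 ± 0.22, adjusted p = 0.00101). Its 3 probes gave differences of 1.02, 1.36 and 1.08. By real-time RT-PCR the study did not find Myh7 raised in mild line hearts of 24 weeks. On the arrays of 3 weeks the same contrast was 0.04 (adjusted p = 0.986). Between 3 and 24 weeks the Myh7 level rose by 1.91 in the mild line (adjusted p = 2.5e-05), while the change of 0.59 in wild type did not pass (adjusted p = 0.254). The change of the difference with age, 1.32, did not pass either (adjusted p = 0.35), so the mild line was not shown to follow another course than wild type.

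Nppb, the B-type natriuretic peptide that stretched heart muscle secretes, read 12.92, 13.35, 13.12, 13.43 and 13.37 in mild line hearts and 11.92, 13.01, 12.15 and 12.02 in wild type hearts. The groups overlapped through 1 wild type array, replicate 2 of the mild line litters, and the difference of 0.97 ± 0.19 passed (adjusted p = 0.00863). Without replicate 1 of the same wild type litters it missed the threshold (0.85, adjusted p = 0.0598). Nppa, the atrial peptide, differed by 0.07 (adjusted p = 0.979). Corin, the protease that cuts both peptides into their active form, was lower in the mild line at 10.62 to 11.01, against 11.49 to 11.82 in wild type (-0.82 ± 0.13, adjusted p = 0.000981). Corin was chosen after its values were seen.

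Both inhibitors of SRF fell in the mild line, while Srf itself gave 0.04 (adjusted p = 0.991). Hopx, a homeodomain protein that binds SRF and not DNA, read 10.23, 9.77, 10.18, 10.19 and 10.29 in mild line hearts and 12.11, 12.31, 12.36 and 12.23 in wild type hearts. It was 4.35-fold lower in the mild line (log2 difference -2.12 ± 0.26, adjusted p = 1.57e-05), the largest fall among all genes tested. Fhl2, a LIM domain protein that competes with cofactors of SRF, read 10.76, 10.48, 10.29, 10.29 and 10.39 in mild line hearts and 11.38, 12.52, 11.42 and 11.89 in wild type hearts. The arrays did not overlap, and Fhl2 was 2.57-fold lower (-1.36 ± 0.28, adjusted p = 0.00917). Its wild type arrays were more spread than its mild line arrays, and without wild type replicate 2 of the mild line litters the difference was -1.12 and missed the threshold (adjusted p = 0.051). The other cofactors of SRF tested, among them Gata4 at -0.07, Nkx2-5 at 0.07 and Myocd at -0.12, did not pass.

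Of 33 known SRF target genes tested, only Acta1 and Nppb passed, both higher, and the median of the list was 0.07 in the mild line. In the severe line the same list had a median of 0.8. Of its members, 18 were lower in the mild line than in the severe line, beside 714 of all 12011 genes tested. Fhl1, a LIM protein of the sarcomere, read 12.17, 12.16, 12.19, 11.87 and 11.9 in mild line hearts and 11.49, 11.67, 11.63 and 11.52 in wild type hearts. Those arrays did not overlap, but the difference of 0.48 ± 0.19 did not pass (adjusted p = 0.431). Rcan1, an inhibitor of calcineurin, and Ccn2, a matrix protein of the growth factor response, gave 0.44 and 0.5 (adjusted p = 0.518 and 0.473). Tpm2, a tropomyosin, gave 0.2 and the immediate early gene Egr1 gave -0.09, with overlapping arrays in both. None of the 22 immediate early genes tested passed in limma, and their median was 0.06. Of the 22, 2 had a raw p under 0.05, beside 7.85% of all genes tested.

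The promoters of the 3 affected genes of the SRF group are shown because each holds, in the 150 bases before a start site annotated by RefSeq (GRCm38.p6), the letters of a CArG box, the site SRF binds, printed in capitals. All 3 genes lie on the minus strand, at chr8:123894776-123894925 for Acta1, chr5:77115124-77115273 for Hopx, chr1:43196762-43196911 for the first Fhl2 start and chr1:43163962-43164111 for the second.
Acta1: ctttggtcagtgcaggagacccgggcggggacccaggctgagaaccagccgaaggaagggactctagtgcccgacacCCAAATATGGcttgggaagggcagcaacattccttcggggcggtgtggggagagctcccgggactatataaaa
Hopx: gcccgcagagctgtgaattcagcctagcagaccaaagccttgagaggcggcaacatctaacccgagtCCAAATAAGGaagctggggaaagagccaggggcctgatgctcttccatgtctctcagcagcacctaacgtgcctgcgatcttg
Fhl2, first start: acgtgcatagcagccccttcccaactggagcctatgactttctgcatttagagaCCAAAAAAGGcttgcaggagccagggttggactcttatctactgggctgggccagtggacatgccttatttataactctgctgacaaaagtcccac
Fhl2, second start: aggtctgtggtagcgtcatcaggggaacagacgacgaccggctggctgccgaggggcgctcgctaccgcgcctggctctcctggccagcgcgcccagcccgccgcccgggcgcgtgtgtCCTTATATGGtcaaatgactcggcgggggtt

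The box began 73 bases before the start in Acta1, 83 in Hopx, and 96 and 31 before the 2 starts of Fhl2. A second annotated start of Hopx held none. Both strands were searched from 250 bases before to 50 bases after each start. The box was found in 1.63% of 32851 such windows and in 1.73% of the 9662 tested genes that had a window. It was found in 3 of the 16 affected genes that had a window, in 7 of 27 listed SRF targets (25.9%) and in 4 of 10 genes of the list of SRF and its cofactors (40%). Those 4 were Hopx, Fhl2, Srf itself and Fhl1, and Fhl1 stands on both lists. Of the genes shown, Acta1 was higher and Hopx and Fhl2 were lower in the mild line.

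Some genes of atrial muscle were lower in the mild line. Of 14 tested, Mybphl, Sln, Dkk3 and Bmp10 passed, all lower, and the list median was -0.32. The mean signal of the 14 genes was 9.25 to 9.4 on mild line arrays and 9.76 to 9.88 on wild type arrays. Mybphl, a myosin-binding protein of the atria and the conduction system, read 10.24, 10.61, 11.1, 11.03 and 10.72 in mild line hearts and 12.5, 12.24, 12.39 and 12.69 in wild type hearts. All mild line arrays were lower by more than 1 log2 unit, and the gene was 3.28-fold lower (-1.71 ± 0.25, adjusted p = 0.00025). Sln, which encodes sarcolipin, an inhibitor of the calcium pump in the atria, read 11.87, 11.79, 12.18, 12.06 and 11.88 in mild line hearts and 13.2, 13.04, 13.3 and 12.99 in wild type hearts. It was 2.26-fold lower, again without overlap (adjusted p = 0.00225).

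Dkk3, a secreted protein related to the Wnt inhibitors of the Dickkopf family, read 9.76, 9.72, 9.55, 9.67 and 9.68 in mild line hearts and 10.97, 11.06, 10.68 and 10.68 in wild type hearts. It was 2.25-fold lower (-1.17 ± 0.16, adjusted p = 0.000117); the groups did not overlap. In severe line hearts its mean was 11.27, which did not pass against wild type (0.42, adjusted p = 0.0832), and the difference between the lines was -1.59 (adjusted p = 3.77e-07). Bmp10, an atrial growth factor named here to complete the count, averaged 6.49 in the mild line, where no array detected it, and 7.03 in wild type (adjusted p = 0.0038). Not all atrial genes were lower: Nppa gave 0.07, Kcnj5 0.1 and Nr2f2 0.16, and none of these passed. The light chains Myl7 and Myl4 gave -0.88 and -0.33, and did not pass either (adjusted p = 0.418 and 0.454).

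Among genes of conduction, Gja5, the connexin of the atria and the His-Purkinje system, read 7.66, 7.31, 7.67, 7.56 and 7.42 in mild line hearts and 8.31, 8.42, 8.33 and 8.46 in wild type hearts. It was 1.81-fold lower (-0.86 ± 0.12, adjusted p = 0.000114). The neuronal sodium channel Scn10a was also lower (-0.56 ± 0.09, adjusted p = 0.000586), and was detected on 2 of 5 mild line and 4 of 4 wild type arrays. The other 14 genes of this list did not pass. Of 18 potassium channel genes, Kcnv2, a silent subunit that modifies Kv2 channels, and Abcc8, the sulphonylurea receptor of KATP channels, were lower. Kcnv2 read 7.36, 7.34, 7.67, 7.48 and 7.25 in mild line hearts and 8.78, 8.43, 8.81 and 8.31 in wild type hearts, a difference of -1.16 ± 0.13 with no overlap (adjusted p = 4.2e-06). Abcc8 differed by -0.57 ± 0.12 (adjusted p = 0.0172). Calcium cycling genes other than Sln did not pass. Atp2a2, the calcium pump, gave -0.04, and Pln, its inhibitor phospholamban, gave -0.32 (adjusted p = 0.979). Ryr2, the release channel, gave -0.51 (adjusted p = 0.7). By real-time RT-PCR the study found Pln and Ryr2 below wild type in the older mild line mice, though less so than in the younger ones.

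Another group of genes was lower in mild line hearts at 24 weeks and, in wild type hearts, read higher at 24 than at 3 weeks. Amy2a5, a pancreatic-type amylase, read 8.59, 8.3, 8.68, 8.5 and 8.27 in mild line hearts and 10.15, 10.02, 10.03 and 9.93 in wild type hearts. It was 2.95-fold lower, with more than 1 log2 unit between the nearest arrays (-1.56 ± 0.11, adjusted p = 5e-09). Its mean was 7.35 in the mild line and 7.85 in wild type at 3 weeks, so that it increased by 1.12 in the mild line and 2.18 in wild type (adjusted p = 2.54e-06 and 4.05e-11). A second kept Amy2a5 probe, detected at 24 weeks on no mild line array and on 2 wild type arrays, gave -0.08.

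Amy1, the salivary and liver type amylase, read 6.87, 6.85, 6.56, 7.0 and 6.86 in mild line hearts and 7.78, 7.9, 7.66 and 7.66 in wild type hearts (-0.92 ± 0.09, adjusted p = 6.52e-07). At 3 weeks both groups averaged 6.55. Klk1b26, a kallikrein-related peptidase, read 6.42, 6.63, 6.68, 6.69 and 6.6 in mild line hearts and 7.77, 7.05, 7.54 and 7.67 in wild type hearts (-0.9 ± 0.11, adjusted p = 1.57e-05). Only 1 of 5 mild line arrays detected it, against all 4 wild type arrays, and its second probe gave -1.19. The study could not detect Klk1b26 in any sample by real-time RT-PCR. Amylases and kallikreins belong to families of closely similar genes, and a probe may read more than 1 of them.

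Cyp2b10, a drug- and hormone-metabolising cytochrome P450 best known from liver, read 6.79, 6.8, 7.01, 6.9 and 6.55 in mild line hearts and 8.46, 8.15, 8.19 and 7.99 in wild type hearts. It was 2.61-fold lower (-1.39 ± 0.1, adjusted p = 9.71e-09). Its second probe, near the limit of detection in both groups, gave 0.05. Acsm5, a mitochondrial medium-chain acyl-CoA ligase, was not detected on any mild line array and was detected on all 4 wild type arrays, and was at least 1.46-fold lower (adjusted p = 6.52e-07). At 3 weeks the differences of Cyp2b10 and Acsm5 were -0.28 and -0.05, and neither passed.

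For these 5 genes the change of the difference with age was tested directly and passed, at -1.06 for Amy2a5, -0.92 for Amy1, -0.95 for Klk1b26, -1.1 for Cyp2b10 and -0.71 for Acsm5 (adjusted p = 0.0052, 0.00234, 0.0128, 0.00234 and 0.0052). Only 8 genes of those tested, 0.0666%, passed this test. The sample titles begin with a number from 1 to 24, used here as an array number, and what it stands for is not stated. None of the 8 calls was kept against the wild type mice of the severe line litters alone or within the arrays numbered 13 to 24, 1 was kept within the arrays numbered 1 to 12 (Lrtm1), and 4 were kept against the wild type mice of the mild line litters alone. The direction of the change was the same for all 8 genes in each of these settings. The Klk1b26 call was also lost without mild line replicate 1 of 3 weeks (adjusted p = 0.0967). With neqc background correction the Amy2a5 call was lost (adjusted p = 0.273). With the mean of all kept probes, Acsm5 at -0.43 and Cyp2b10 at -0.46 lost theirs (adjusted p = 0.0752 and 0.0909). With raw intensities scaled to a common median, Amy1, Amy2a5 and Acsm5 lost theirs (adjusted p = 0.382, 0.0548 and 0.104). The list of exocrine pancreas and salivary gland genes was read beside them. Its mean over 9 genes was 6.88 to 6.96 on mild line arrays and 7.23 to 7.3 on wild type arrays, and the 3 members that passed were Amy2a5, Amy1 and Klk1b26. The other 6, among them the pancreatic enzymes Cela2a, Ctrb1 and Cpb1 at 0.01, -0.12 and -0.02, did not pass.

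**Figure D3:**
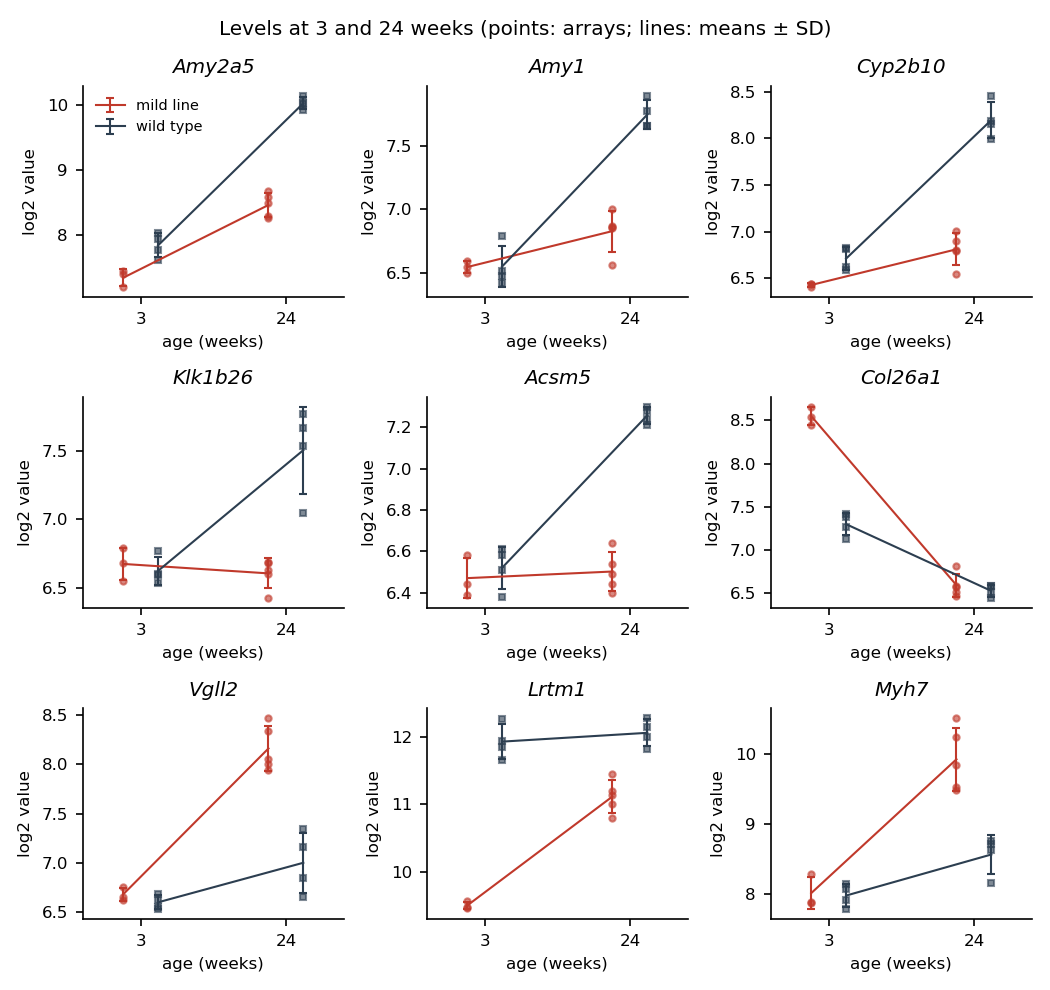
Log2 value (y axis) at 3 and 24 weeks (x axis) of 9 genes in mild line hearts (red) and wild type hearts (dark). Points are arrays and lines join means ± SD; Amy2a5, Amy1, Cyp2b10, Klk1b26 and Acsm5 rise with age in wild type and less or not at all in the mild line, and Vgll2 and Myh7 rise more steeply in the mild line, which passed the test for Vgll2 and not for Myh7.

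The other 3 genes that passed the test of age were Vgll2, Lrtm1 and Col26a1. Vgll2, a cofactor of TEAD transcription factors in skeletal muscle, read 8.33, 8.47, 8.0, 7.94 and 8.05 in mild line hearts and 6.66, 7.34, 7.16 and 6.85 in wild type hearts. It was 2.23-fold higher without overlap (1.15 ± 0.14, adjusted p = 1.26e-05), although at 3 weeks it differed by 0.08, and the change between the ages was 1.07 (adjusted p = 0.0471). That call was kept in 3 of 16 settings with 1 array left out, those without mild line replicate 3 or 4 or without wild type replicate 2 of the mild line litters, all of 24 weeks. In the others the adjusted p reached up to 0.145. Lrtm1, a leucine-rich membrane protein, was still lower at 24 weeks (-0.94 ± 0.17, adjusted p = 0.00225), with 10.8 to 11.44 in mild line hearts and 11.81 to 12.28 in wild type. Its difference at 3 weeks was larger, -2.42, and the change was 1.48 (adjusted p = 0.0114), a call lost without mild line replicate 1 or 3 of 3 weeks (adjusted p = 0.0572 and 0.0516). Col26a1, a collagen, averaged 8.55 in the mild line and 7.3 in wild type at 3 weeks, but 6.6 and 6.53 at 24 weeks, where 1 of the 9 arrays detected it (change -1.18, adjusted p = 0.00211).

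Mthfd2, Phlda1 and Asns, which sit on a list of stress response and serine-folate genes, were the members of that list to pass, all higher, among 31 tested with a median of 0.09. Mthfd2, the mitochondrial folate enzyme that is abundant in embryonic and dividing cells, read 8.59, 9.47, 9.02, 8.84 and 8.74 in mild line hearts and 7.55, 7.83, 7.92 and 7.67 in wild type hearts. It was 2.29-fold higher without overlap (1.19 ± 0.18, adjusted p = 0.000521), and its dimmer second probe gave 0.22. Phlda1, a growth factor and stress inducible protein, read 10.16, 9.94, 9.76, 9.93 and 9.98 in mild line hearts and 8.93, 8.8, 9.16 and 8.82 in wild type hearts. It was 2.04-fold higher, again with all mild line arrays above all wild type arrays (adjusted p = 6.76e-05).

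Asns, which makes asparagine and is a target of the transcription factor ATF4, read 8.17, 8.65, 8.16, 8.41 and 8.31 in mild line hearts and 7.66, 8.12, 7.7 and 7.9 in wild type hearts. The difference was small at 0.5 ± 0.12 (adjusted p = 0.0442), and the nearest arrays, 8.16 and 8.12, almost met. A dimmer kept probe of Asns gave 0.12. At 3 weeks Mthfd2, Phlda1 and Asns differed by 0.28, 0.09 and -0.33, and none passed. Atf4 itself gave 0.1, and the serine synthesis genes Phgdh and Psat1 gave 0.02 and -0.21. The 27 heat shock proteins tested had a median of -0.02, and none of them passed in limma. Of the 27, 6 had a raw p under 0.05, beside 7.85% of all genes tested.

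The promoter of Asns is printed because it holds the element that ATF4 binds with its partners, TGATGNAA (TTNCATCA on the other strand), in capitals. It lies on the minus strand at chr6:7693210-7693359 (RefSeq, GRCm38.p6), and the element began 23 bases before the start.
Asns: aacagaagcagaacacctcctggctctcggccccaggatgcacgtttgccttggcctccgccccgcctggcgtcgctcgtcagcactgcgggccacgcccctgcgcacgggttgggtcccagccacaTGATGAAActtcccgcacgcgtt

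On either strand TGATGNAA was found in 3.97% of all 32851 windows and in 2.93% of the 9662 tested genes that had a window. It was found in 8 of the 26 genes of the stress response list that had a window (30.8%). Mthfd2 had no match in its window. Tnnt1 had a match, 193 bases before its start, and was the only affected gene with a window that had one.

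Beside Cep70, which was higher, Ttll1, Ift81 and Cep128 were lower. The centrosomal Cep57 and Cep63 gave -0.12 and -0.08, and did not pass. Cep112, chosen after its values were seen, gave -0.45 and passed in 14 of 24 alternative settings. Ttll1, an enzyme that adds glutamate chains to tubulin, read 8.53, 8.13, 8.86, 8.35 and 8.12 in mild line hearts and 9.79, 8.99, 9.76 and 9.74 in wild type hearts. It was 2.25-fold lower (-1.17 ± 0.18, adjusted p = 0.000521), and the nearest arrays were mild line replicate 3 at 8.86 and wild type replicate 2 of the mild line litters at 8.99. Ift81, which carries tubulin into the cilium, read 9.87, 9.81, 9.78, 9.8 and 9.81 in mild line hearts and 11.0, 10.78, 10.72 and 10.89 in wild type hearts, with the mild line arrays close together. It was 2.04-fold lower (-1.03 ± 0.1, adjusted p = 7.74e-07), and its 3 probes gave -0.98, -0.95 and -1.03.

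Cep128, a protein of the centriole's appendages, read 6.58 to 6.78 in mild line hearts and 7.29 to 7.72 in wild type hearts (-0.81 ± 0.08, adjusted p = 6.37e-07). Sun3, a SUN domain protein of the nuclear envelope, read 7.29 to 7.49 in mild line hearts and 8.26 to 8.43 in wild type hearts (-0.98 ± 0.09, adjusted p = 6.52e-07). Neither gene overlapped between the groups, and both were already lower at 3 weeks, by 0.55 and 0.95 on the log2 scale. Whrn, which encodes whirlin, a scaffold protein of the stereocilia, read 8.51, 8.39, 8.42, 8.15 and 8.35 in mild line hearts and 9.63, 9.14, 9.44 and 9.57 in wild type hearts. It was 2.12-fold lower (-1.08 ± 0.12, adjusted p = 6.76e-06). Of the 24 tubulins and tubulin-modifying enzymes tested, only Cep70 and Ttll1 passed, and the list median was 0.04.

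Among signalling genes, Dusp26, a dual specificity phosphatase that acts on MAP kinases, read 9.2, 9.44, 9.19, 9.63 and 9.49 in mild line hearts and 7.82, 7.74, 7.8 and 7.61 in wild type hearts. It was 3.13-fold higher with more than 1 log2 unit between the nearest arrays (1.64 ± 0.16, adjusted p = 6.52e-07), and the other 19 phosphatases of its list did not pass. Spsb4, the substrate adaptor of a ubiquitin ligase, read 8.62, 8.74, 9.12, 8.86 and 8.79 in mild line hearts and 7.72, 8.08, 7.67 and 7.75 in wild type hearts. It was 2.03-fold higher without overlap (adjusted p = 0.00252). Ppp1r1b, an inhibitor of protein phosphatase 1, was lower at 6.57 to 6.72 in the mild line, against 7.36 to 7.72 in wild type (-0.85 ± 0.12, adjusted p = 0.000163). Ppp1r3c, which brings the same phosphatase to glycogen, was higher by 0.44 ± 0.09 (adjusted p = 0.0108).

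Scgb1c1, a small secreted protein of the secretoglobin family, read 12.3, 12.29, 12.49, 12.49 and 12.37 in mild line hearts and 11.31, 10.73, 11.24 and 10.53 in wild type hearts. It was 2.71-fold higher (1.44 ± 0.13, adjusted p = 3.2e-07), with the mild line arrays close together and the wild type arrays spread. Replicate 4, the array with high lung genes, read 12.49, the same as replicate 3. Ano10, a member of the anoctamin family of ion channels and lipid scramblases, read 8.4, 8.07, 8.38, 8.1 and 8.09 in mild line hearts and 10.16, 9.25, 9.75 and 10.1 in wild type hearts. It was 3.05-fold lower (-1.61 ± 0.16, adjusted p = 8.63e-07), and the lowest wild type array was again replicate 2 of the mild line litters.

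Other transporters and enzymes moved by less than 2-fold. Slc24a2, an exchanger of sodium for calcium and potassium, was higher at 8.18 to 8.42 in mild line hearts and 7.31 to 7.46 in wild type (0.9 ± 0.09, adjusted p = 9.52e-07). Slc9a3, the sodium-proton exchanger of the gut and kidney, was detected on all 5 mild line arrays and on no wild type array, and was at least 1.4-fold higher (adjusted p = 4.52e-05). Maob, monoamine oxidase B, was lower at 7.63 to 8.06 in mild line hearts and 8.51 to 8.64 in wild type (-0.81 ± 0.09, adjusted p = 7.83e-06). Tmprss13, a membrane-bound serine protease, was lower by 0.82 on the log2 scale (adjusted p = 4.96e-05). In each of these 4 genes the arrays of the groups did not overlap.

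Of 33 genes of fatty acid use tested, Ces1d and Acot1 passed, both lower. The list median was -0.23, and 90.9% of the 33 were not above 0, beside 47.5% of all genes. Ces1d, a carboxylesterase that splits triglycerides, read 9.56, 9.8, 10.08, 10.2 and 9.7 in mild line hearts and 11.69, 11.56, 11.58 and 11.62 in wild type hearts. It was 3.35-fold lower with no overlap (-1.74 ± 0.31, adjusted p = 0.00227). Acot1, a cytosolic acyl-CoA thioesterase, read 7.88, 8.6, 8.65, 8.75 and 8.58 in mild line hearts and 9.04, 9.4, 10.15 and 9.35 in wild type hearts (-0.99 ± 0.22, adjusted p = 0.0246). The Acot1 call was lost without mild line replicate 1 or 2 or wild type replicate 1 of the severe line litters (adjusted p = 0.0829, 0.0501 and 0.156).

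Enzymes of the β-oxidation steps did not pass: Cpt2 gave -0.45 (adjusted p = 0.0993), Acadvl -0.36 (adjusted p = 0.443), and Acadl, Acadm and Hadha -0.05, -0.23 and -0.23. None of 46 genes of oxidative phosphorylation passed in limma. None of them had a raw p under 0.05 either, beside 7.85% of all genes tested. The median of the 46 was -0.1, and 84.8% of them were not above 0. In the list of glucose use, Fbp2, the muscle form of fructose bisphosphatase, read 7.54, 7.94, 7.91, 8.45 and 8.16 in mild line hearts and 8.69, 9.15, 9.5 and 9.45 in wild type hearts. It was 2.29-fold lower (-1.2 ± 0.23, adjusted p = 0.0049) without overlap. Amy1 is the other member of that list that passed, among 31 tested, and the list median was 0.

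Of 48 genes of the extracellular matrix tested, Tgfb3, a growth factor of the TGF-β family, was the one that passed, at 7.69 to 8.26 in mild line hearts and 7.29 to 7.64 in wild type (0.55 ± 0.13, adjusted p = 0.0322). The list median was 0.19 in the mild line and 0.84 in the severe line, and 81.2% of the 48 were above 0 in the mild line, beside 52.5% of all genes. Itga11, a collagen receptor of fibroblasts chosen after its values were seen, differed by 0.54 ± 0.12 (adjusted p = 0.0306), and lost this call without any 1 of 5 arrays (adjusted p between 0.0784 and 0.127). The laminin chains Lamb3 and Lama5, not on the list and chosen after their values were seen, were lower, at -0.97 and -0.51. They passed in 22 and 20 of 24 alternative settings.

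**Figure D4:**
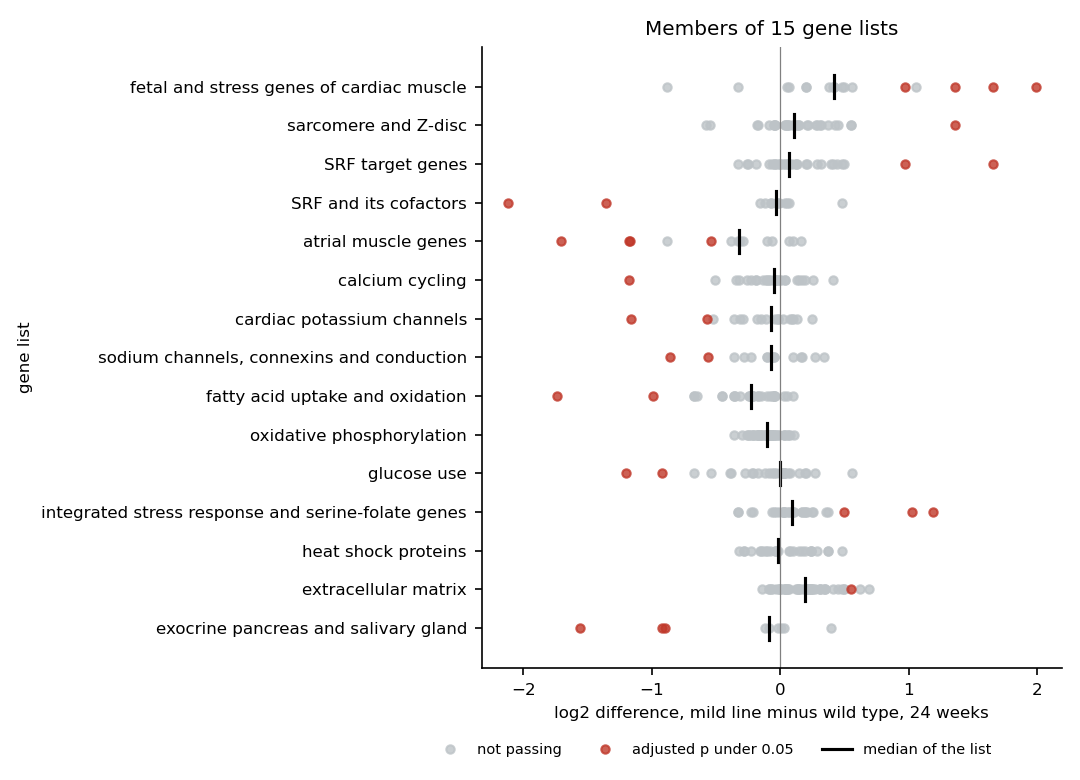
Log2 difference, mild line minus wild type at 24 weeks (x axis), of the members of 15 gene lists (y axis). Each point is a gene, red where it passed the adjusted p, and black bars are list medians; atrial and fatty acid genes have medians of -0.32 and -0.23, fetal and stress genes 0.42, and most members of every list did not pass.

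Lists of cell type markers differed little. None of the 12 fibroblast, 13 endothelial, 8 smooth muscle, 14 myeloid or 11 cardiac muscle markers passed in limma. Beside 7.85% of all genes tested, 1, 1, 1, 0 and 1 of these markers had a raw p under 0.05. Their medians were 0.14, 0.01, 0.07, -0.11 and -0.03. The mean of the fibroblast list was 9.08 to 9.13 on mild line arrays and 8.77 to 9.17 on wild type arrays, and that of the myeloid list 7.9 to 8.28 and 8.03 to 8.32. Dbh, the noradrenaline-making enzyme of sympathetic nerves, was the nerve marker that passed (-0.51 ± 0.12, adjusted p = 0.0388), detected on 1 of 5 mild line and 4 of 4 wild type arrays. The other 4 nerve and glia markers did not pass. The part of these cell types in the differences above was not tested.

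The mild line differed from wild type in 280 genes at 3 weeks (2.33%), with 3 mild line and 4 wild type arrays, none of which was used at 24 weeks. Of the genes that passed at 24 weeks, 73 also passed at 3 weeks, every one in the same direction, and all but 5 had the same sign at both ages, a property of 58.8% of all genes tested. Of the 25 affected genes, 20 passed at 3 weeks, and the other 5 were Cyp2b10, Vgll2, Phlda1, Mthfd2 and Myh7. Among the 20, the differences at 3 and at 24 weeks were -3.06 and -1.71 for Mybphl, 2.53 and 1.64 for Dusp26, -1.95 and -1.18 for Sln, -2.63 and -2.12 for Hopx, and 1.12 and 1.66 for Acta1. None of these 5 changes with age passed (adjusted p between 0.508 and 1). Rbfox1, a splicing regulator of muscle, differed by -1.92 at 3 weeks and passed (adjusted p = 1.03e-05), whereas at 24 weeks it differed by -0.72 and did not (adjusted p = 0.101), with 10.98 to 11.43 in mild line hearts and 11.38 to 12.17 in wild type. The change itself, 1.2, did not pass (adjusted p = 0.288).

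The mild and the severe line were compared directly at 24 weeks, with 5 hearts each, and differed in 1354 genes (11.3%), of which 640 were higher and 714 lower in the mild line. Of the 25 affected genes, 10 differed between the lines: Celf4, Cep70, Scgb1c1, Ttll1, Kcnv2, Fbp2 and Ift81 were higher in the mild line, and Dkk3, Mybphl and Sln were lower. Both contrasts contain the same 5 mild line arrays, so the counts are not independent. Celf4, high in both lines on its brightest probe, was 0.64 ± 0.17 higher in the mild line (adjusted p = 0.0183). Its means were 12.19 in the mild line and 11.55 in the severe line.

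Scgb1c1 averaged 12.39 in the mild line, 11.2 in the severe line and 10.95 in wild type, and the lines differed by 1.19 ± 0.12 (adjusted p = 1.06e-06). Mybphl averaged 10.74 in the mild line, 12.08 in the severe line and 12.46 in wild type, and the lines differed by -1.34 ± 0.24 (adjusted p = 0.00052). These levels place the severe line nearer to wild type for both genes. Ttll1, Kcnv2, Fbp2 and Ift81 were lower than wild type in both lines, and lower in the severe line than in the mild line, with line differences of 0.93, 0.61, 0.79 and 0.45.

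**Figure D5:**
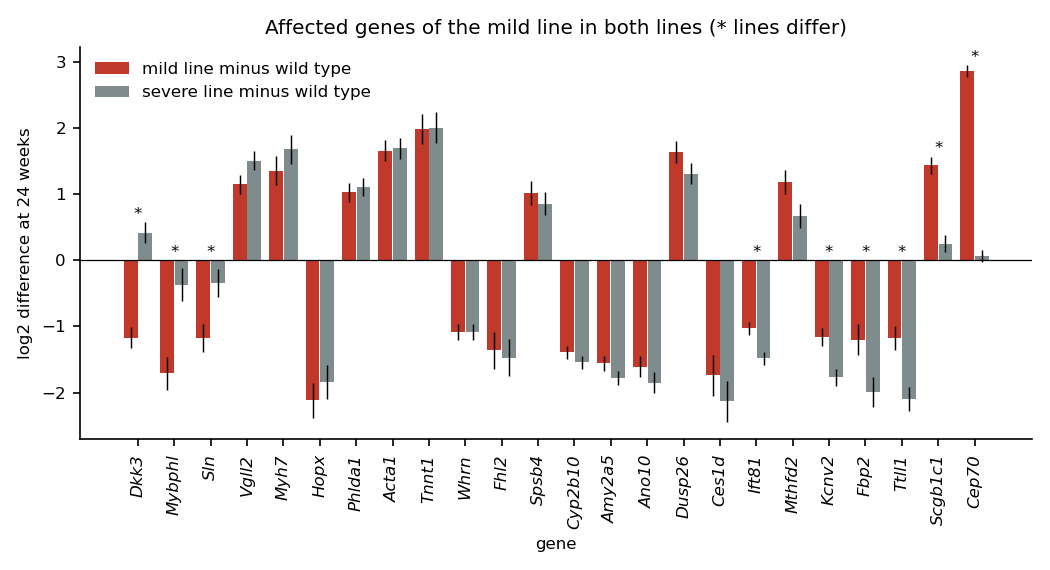
Log2 difference from wild type at 24 weeks (y axis) of 24 affected genes (x axis; Celf4, at 5.8 and 5.16, is left out for scale) in the mild line (red) and the severe line (grey), with standard errors. Stars mark genes that differed between the lines; Cep70 and Scgb1c1 stand high in the mild line, and Dkk3, Mybphl and Sln stand low there.

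Of the genes with the largest differences between the lines, Comp, a cartilage matrix protein, Lgals3, the lectin galectin-3, Ecrg4 and Ildr2 were lower in the mild line, by -2.69, -2.02, -1.94 and -1.93 on the log2 scale. In the mild line against wild type they differed by 0.15, 0.19, 0.07 and 0.29, and none passed. Dgat2, the last enzyme of triglyceride synthesis, and Scn4b, a sodium channel subunit, were 1.27 and 1.31 higher in the mild line than in the severe line, and differed from wild type by -0.35 and -0.1. Of the 48 matrix genes, 32 were lower in the mild line than in the severe line, beside 714 of all 12011 genes tested.

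The wild type group was examined in the same way, since it joined mice of both litters. No gene passed between the 2 wild type mice of the mild line litters and the 2 of the severe line litters in limma, with a smallest adjusted p of 0.556 (D8Ertd738e, Klf15 and Sertad1), and 500 genes had a raw p under 0.05. Against each litter alone, 54 genes passed with the mild line litters and 64 with the severe line litters. Both wild type mice of the mild line litters had titles numbered from 1 to 12, and both of the severe line litters from 13 to 24. Litter and number therefore cannot be told apart. Median raw intensity was 95.9 to 123.4 on all arrays numbered 1 to 12 and 64.3 to 86.8 on those numbered 13 to 24. All 25 affected genes passed with runs of 6 array numbers as a block in the fit.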

How the data were processed

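Total RNA of whole hearts was hybridised to Illumina MouseWG-6 v2.0 BeadChips, per the labels and the study's methods. The authors deposited, for each array, raw probe intensities, log2 values after quantile normalisation and a detection p-value; the software was not given in the sources used here, and the log2 values were used as deposited; a further 48 deposited columns, with bead standard errors and bead numbers, were not used. Background stays in the raw intensities, so fold changes of dim genes are drawn towards 1. Probes detected (p under 0.05) on at least 3 of 24 arrays were kept. The platform annotation gave 1 symbol to 34885 probes, several to 18 and none to 10378, and the kept probe with the highest mean stood for its gene. All 24 arrays entered 1 limma fit (limma 3.58.1, R 4.3.3) with 6 groups, or 8 with wild type split by litter, with Benjamini-Hochberg adjustment over all 12011 genes; the scripts were first tested on simulated data. The labels call the samples biological replicates. The number of arrays limits the precision. A fold against a group with no detected array is a bound, from the higher of the dimmest detected probe and the gene's own value on each array.

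Genes named were the affected genes, those the study discusses, the leading members of each gene list, the 10 leading genes under 2-fold, and the leading genes of the age, line and litter contrasts; further list members given as examples were chosen after their values were seen. The members and lists were chosen with earlier results of these data known. Promoter sequences came from RefSeq. Alternatives tried were other normalisations (raw intensities scaled to a common median, neqc), probe filters, the mean of a gene's probes, only the compared groups, each wild type litter alone, runs of array numbers as a block, arrays 1 to 12 or 13 to 24 alone, replicate blocks, array weights and leaving out each array.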

Additional observations from a re-analysis of the deposited data

Results flagged for a closer look

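Within the groups of 4 or 5 arrays, 1 array stood far from the others in 8 of the 156 groups examined (78 genes, mild line and wild type), where chance alone sets about 1 in 20 apart. Among mild line arrays, replicate 2 read 9.77 for Hopx, against 10.18 to 10.29 on the others. Replicate 3 read 7.37 for Fos (6.98 to 7 on the others), 7.95 for Pik3cb (8.34 to 8.44) and 7.73 for Bcl2 (7.94 to 8.01). Replicate 1 read 7.88 for Acot1 (8.58 to 8.75) and 7.09 for Bex4 (7.25 to 7.28). Among wild type arrays, replicate 2 of the mild line litters read 9.13 for Tnnt1 (9.96 to 10.06 on the others) and 8.99 for Ttll1 (9.74 to 9.79).

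For 8 genes the difference from wild type changed between 3 and 24 weeks by the limma test of the change itself. The change was 1.48 for Lrtm1 and 1.07 for Vgll2, and -0.71 for Acsm5, -0.92 for Amy1, -1.06 for Amy2a5, -1.18 for Col26a1, -1.1 for Cyp2b10 and -0.95 for Klk1b26, on the log2 scale.

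Outside the named genes, 24 of the 3756 kept probes with no single gene symbol passed the adjusted p between mild line and wild type hearts at 24 weeks, with 8 higher and 16 lower.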

How the results depend on the processing

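The 25 affected genes numbered 61 with neqc background correction (27 higher, 34 lower, the 25 among them), 17 with the mean of all kept probes of a gene (8 higher, 9 lower, 15 of them among the 25) and 24 to 29 with 1 array left out. The genes passing the adjusted p (51 higher, 65 lower) numbered, in all, 49 with raw intensities scaled to a common median (16 higher, 33 lower), 54 and 64 against the wild type mice of the mild and severe line litters alone, 36 and 27 within arrays 1 to 12 and 13 to 24, 175 with array runs as a block, 193 with array weights, and 88 to 124 with 1 array left out. The 8 genes changing with age numbered 3 with scaled raw intensities, 20 with only the compared groups, 4 and 1 against each litter, 15 with the run block, 5 and 0 within those array ranges, 14 with array weights, and 5 to 10 with 1 array left out. Of the 8 themselves, 0 were kept against the severe line litters and within arrays 13 to 24, 1 within arrays 1 to 12 and 3 with scaled raw intensities. The 1354 genes between lines numbered 852 with scaled raw intensities (49 higher, 803 lower, median of all genes -0.11), 901 with only the compared groups, 194 and 253 within those array ranges, 2159 with array weights, and 1098 to 1409 with 1 array left out. Between litters, 5 genes passed without wild type replicate 1 of the mild line litters, and 0 to 5 over all arrays left out.

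Replicate numbers are shared between groups, but same-numbered arrays did not deviate together (correlations of -0.09, 0.06, 0.19 and 0.09). With the replicate block, 25 genes were affected, 118 passed, 18 changed with age, 1885 differed between lines and 0 between litters. Over 78 genes and all alternatives, 1693 values stayed on their side of the threshold, 177 with a call lost it and 1 gained one. Of values with a call in the main fit or the alternative, 0 reversed sign. Sign changes of genes without a call were not counted, as for Fos, which ranged from -0.35 to 0.23. Of 24 settings, Fhl2 passed in 18 and Fbp2 and Spsb4 in 20, and the other affected genes in 22 to 24. The causes were not tested. Dim genes near the detection limit, such as Klk1b26, Acsm5 and Cep128, rest on signals little above background.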
